A study of Mus musculus with 6 samples.

Results

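Macf1, Dst, Utrn, Herc1, Herc2, Huwe1, Ubr4, Birc6, Lrba and Wnk1 are 10 genes that encode very large proteins of the cytoskeleton, of ubiquitin conjugation and of vesicle traffic, and a large kinase. They were selected by symbol from the 14148 genes listed for hippocampal microglia, the resident macrophages of the brain. All 10 were listed, and all 10 passed the filter on low values (at least 10 normalized counts in at least 3 libraries). The genes were proposed after their values in the comparison described here were known, so those values are given as a description and no test is reported for any of the 10.

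RNA was sequenced from LD-high and LD-low microglia, that is, cells with much or little signal of BODIPY, a dye for the neutral lipid stored in lipid droplets. Both were live CD11b+CD45lo cells from the hippocampus of male C57BL/6 mice aged 18 months, with no genetic change or treatment named in the labels. Each of the 6 libraries, 3 LD-high and 3 LD-low, came from about 10000 sorted cells, with hippocampi of 3 mice combined. The labels number the libraries of both groups from 1 to 3 but do not say whether the same number means the same mice, nor whether the pools hold different mice.

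Macf1 and Dst encode spectraplakins, which bind actin filaments at one end and microtubules at the other, and Utrn encodes utrophin, the relative of dystrophin that ties actin to dystroglycan in the membrane. Herc1, Herc2 and Huwe1 encode ubiquitin ligases of the HECT class, which take ubiquitin onto a cysteine of their own before they pass it to a substrate. Ubr4 encodes a ligase that recognises destabilising N-terminal residues, and Birc6 an inhibitor of apoptosis with its own ubiquitin-conjugating domain. Lrba encodes a BEACH-domain protein of vesicle traffic, known for keeping the immune receptor CTLA4 from lysosomal breakdown. Wnk1 encodes a chloride-sensitive kinase that acts through the kinases encoded by Stk39 and Oxsr1 on cation-chloride cotransporters.

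The windows of 250 bases before the annotated start were read for the 10 genes from RefSeq promoters of GRCm38.p6, where all 10 had an entry and Dst and Herc2 had 2 entries each, 12 in all. Promoter sequences are shown for 4 genes: Herc1, Huwe1 and Wnk1, which were lower in every LD-high library than in any LD-low library, and Herc2, the gene that was not lower. Macf1, Dst and Utrn were also lower in every LD-high library, and their windows are not printed. Sequences run 5′ to 3′ on the strand of the gene. Capitals mark matches, on either strand, to the palindrome CTCGCGAG, to GCGCATGC (the core of the NRF1 site), to the GC box core GGGCGG, to the CCAAT box, or to ACAATTCC, part of a longer element of housekeeping promoters.
Herc1, chr9:66350200-66350449, plus strand: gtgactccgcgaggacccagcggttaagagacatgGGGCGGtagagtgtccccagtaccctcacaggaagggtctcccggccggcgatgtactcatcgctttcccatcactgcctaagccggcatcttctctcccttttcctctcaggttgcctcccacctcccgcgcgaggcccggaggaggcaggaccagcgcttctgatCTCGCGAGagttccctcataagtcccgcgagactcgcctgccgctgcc
Huwe1, chrX:151803032-151803281, plus strand: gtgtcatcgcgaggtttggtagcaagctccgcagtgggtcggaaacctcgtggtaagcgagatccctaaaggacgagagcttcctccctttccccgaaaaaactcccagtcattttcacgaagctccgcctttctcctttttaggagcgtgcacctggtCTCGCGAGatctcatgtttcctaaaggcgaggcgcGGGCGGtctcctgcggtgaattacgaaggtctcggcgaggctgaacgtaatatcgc
Wnk1, chr6:120038656-120038905, minus strand: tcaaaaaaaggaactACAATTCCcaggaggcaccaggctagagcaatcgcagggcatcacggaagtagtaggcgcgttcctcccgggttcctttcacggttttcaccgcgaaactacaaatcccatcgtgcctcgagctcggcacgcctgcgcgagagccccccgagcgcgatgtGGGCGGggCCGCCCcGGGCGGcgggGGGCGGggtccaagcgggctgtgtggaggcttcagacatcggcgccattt
Herc2, chr7:56049905-56050154, plus strand: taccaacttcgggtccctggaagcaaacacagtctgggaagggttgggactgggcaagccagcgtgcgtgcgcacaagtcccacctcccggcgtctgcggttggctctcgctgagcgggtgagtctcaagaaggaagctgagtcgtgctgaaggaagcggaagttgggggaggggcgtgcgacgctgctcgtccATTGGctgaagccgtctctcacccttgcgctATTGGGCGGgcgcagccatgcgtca

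The palindrome CTCGCGAG stood in the windows of Herc1 and Huwe1, and in 0.761% of all 32851 promoter windows searched. It stood in 1.41% of the 13348 windows of genes listed in the microglia. ACAATTCC stood in the window of Wnk1, and in 0.907% of all windows and 1.19% of those of listed genes. GCGCATGC was found before Ubr4 and Birc6, and in 2.26% of all windows and 4.17% of those of listed genes. The GC box core was found in 9 of the 12 entries, from 8 of the 10 genes, and in 55.3% of the windows of listed genes. The CCAAT box was found in Herc2 and in 1 entry of Dst, and in 35% of the windows of listed genes. In the Herc2 window printed here, the last match to the CCAAT box, on the other strand, shares 2 bases with a GC box core, and no other matches in the 12 entries overlapped. The ETS site core CCGGAAG and the TATA box, as TATAAA, were also searched on both strands and matched in none of the 12 entries, against 12.8% and 6.73% of the windows of listed genes. The windows of Macf1 and Utrn held 2 CpG dinucleotides each, against a median of 15 in the windows of listed genes, and no motif matched in either. Macf1 and Utrn had 1 entry each, so windows before any other start of theirs were not read. A match describes letters only, and no motif was shared by the 6 genes whose libraries did not overlap.

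Of the 10 genes, 9 averaged lower in LD-high than in LD-low microglia and Herc2 averaged slightly higher. The median log2 change of the 10, LD-high minus LD-low on log2(normalized count + 1), was −0.50, beside −0.01 over all 11624 genes tested. The values of 6 genes lay lower in every LD-high library than in any LD-low library, a pattern found in 11.7% of all tested genes. Since the genes were chosen with this contrast known, nothing is read from that count. By limma with Benjamini-Hochberg adjustment at 0.05, 3.36% of the tested genes differed in either direction, 1.53% higher and 1.82% lower in LD-high libraries. In bulk samples fewer cells of a type and less RNA per cell cannot be told apart. Among the libraries, LD-low 3 and LD-high 3 stood apart for these genes, at the high and at the low end. Results with single libraries left out are given below. P-values measure the spread between these 6 libraries, which may be technical if pools share mice.

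**Figure D1:**
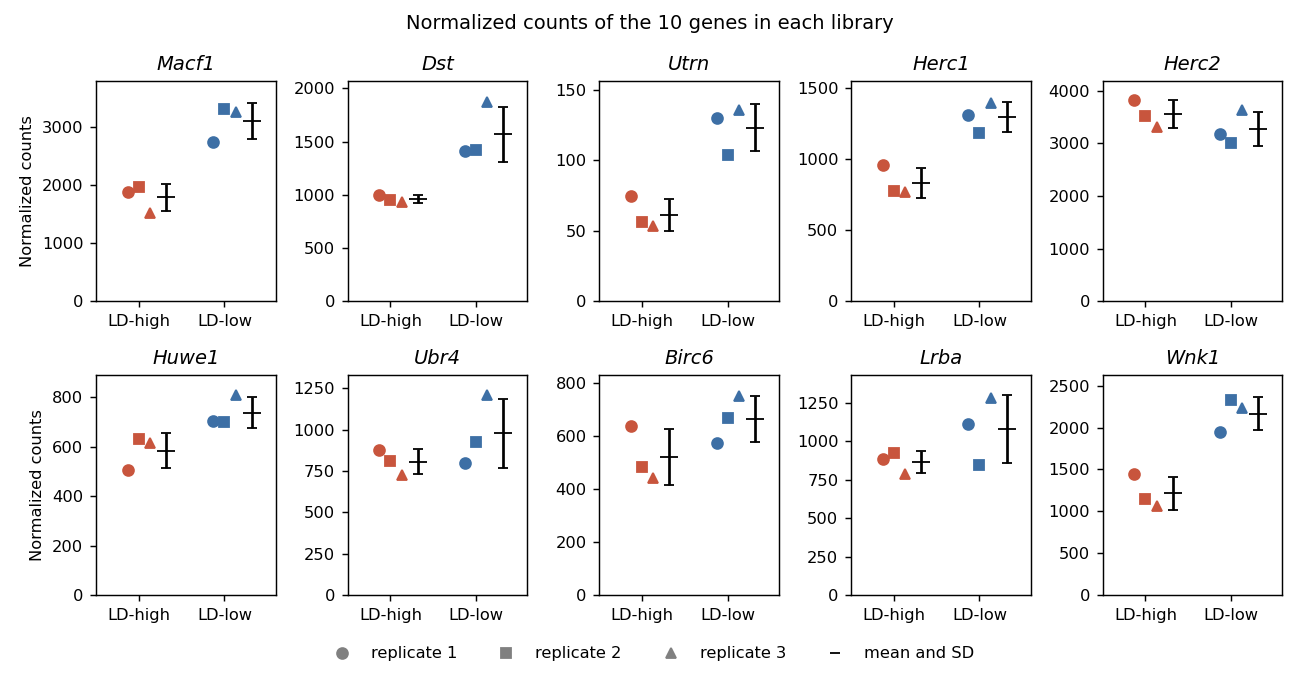
Normalized counts of each of the 10 genes (vertical axes, each from 0) in 3 LD-high and 3 LD-low libraries, where symbols give the replicate number and bars the mean and SD. LD-high points sit under all LD-low points for Macf1, Dst, Utrn, Herc1, Huwe1 and Wnk1, and the groups overlap for the other 4 genes.

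Macf1, the microtubule-actin crosslinking factor, lies on chr4:123026876-123361603 on the minus strand of mm9, with a longest annotated transcript of 23407 bases in 101 exons. All gene positions are those of mm9, while the promoter windows above are those of GRCm38.p6. It had 1884, 1958 and 1511 normalized counts in LD-high libraries 1 to 3, against 2739, 3301 and 3256 in LD-low libraries 1 to 3. All LD-high values were below all LD-low values, with LD-high 3 lowest. The means were 1784 ± 239 in LD-high and 3099 ± 312 in LD-low libraries (SD, n = 3 each), so LD-high microglia held 57.6% of the LD-low level, a log2 change of −0.80 ± 0.10 (SE).

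Dst encodes dystonin, the other spectraplakin, and lies on chr1:33965125-34365495 on the plus strand, with a transcript of 23285 bases in 99 exons. It had 999.5, 947 and 937 normalized counts in LD-high libraries, against 1414, 1424 and 1869 in LD-low libraries. The LD-high values were close together, and LD-low 3 stood above the other 2 LD-low libraries. The means were 961 ± 33.6 in LD-high and 1569 ± 259.9 in LD-low libraries (SD, n = 3 each). The log2 change was −0.69 ± 0.10 (SE).

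Utrn lies on chr10:12101986-12589163 on the minus strand, with a transcript of 12382 bases in 74 exons, and had by far the fewest reads of the 10. It had 74.5, 56.0 and 53.4 normalized counts in LD-high libraries, against 129.8, 104 and 136 in LD-low libraries. Behind these values stood 100, 50 and 32 reads in LD-high and 185, 96 and 146 reads in LD-low libraries. Its log2 change of −1.0 ± 0.23 (SE) was the most negative of the 10 and had the widest error. LD-high microglia held 49.8% of the LD-low level, with no overlap between the groups.

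Herc1, a giant HECT ligase with RCC1-like repeats, lies on chr9:66198257-66356582 on the plus strand, with a transcript of 15153 bases in 78 exons. It had 959, 777 and 771 normalized counts in LD-high libraries, against 1313, 1183 and 1394 in LD-low libraries. The groups did not overlap, and LD-high 1 stood above the other 2 LD-high libraries. The means were 836 ± 106 in LD-high and 1297 ± 106 in LD-low libraries (SD, n = 3 each). The log2 change was −0.64 ± 0.10 (SE).

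Herc2 encodes a ligase of the same HECT and RCC1-like build, known from DNA repair, and lies on chr7:63305525-63487164 on the plus strand, with a transcript of 15342 bases in 93 exons. It had 3828, 3515 and 3304 normalized counts in LD-high libraries, against 3178, 3009 and 3639 in LD-low libraries. The ranges overlapped, and the highest of all 6 values was that of LD-high 1. The means were 3549 ± 263 in LD-high and 3275 ± 326 in LD-low libraries (SD, n = 3 each). The log2 change was 0.12 ± 0.08 (SE). It was 0.06 without LD-high replicate 1 or LD-low replicate 2, and 0.20 without LD-low replicate 3. Herc1 and Herc2 have transcripts of nearly the same length and differed in the direction of their mean change. The part of length in their values was not tested.

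Huwe1, a HECT ligase whose known substrates include p53 and Mcl1, lies on chrX:148235350-148369960 on the plus strand, with a transcript of 14579 bases in 83 exons. It had 504, 632 and 616 normalized counts in LD-high libraries, against 702, 698 and 809 in LD-low libraries. The groups did not overlap, but the highest LD-high value lay near the lowest LD-low value. LD-high microglia held 79.3% of the LD-low level, a log2 change of −0.34 ± 0.11 (SE).

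Ubr4, the N-degron ligase, lies on chr4:138908524-139045503 on the plus strand, with a transcript of 15954 bases in 107 exons. It had 880.4, 813 and 728 normalized counts in LD-high libraries, against 798, 927 and 1209 in LD-low libraries. LD-low 1 lay below 2 of the LD-high libraries, so the groups overlapped. Its log2 change was −0.26 ± 0.13 (SE), and it was −0.10 without LD-low replicate 3 and −0.40 without LD-low replicate 1.

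Birc6, whose protein blocks caspases and tags them with ubiquitin, lies on chr17:74927635-75103113 on the plus strand, with a transcript of 16212 bases in 73 exons. It had 638, 482 and 439 normalized counts in LD-high libraries, against 574, 668 and 749 in LD-low libraries. LD-high 1 stood above LD-low 1, and the other 2 LD-high libraries lay below all LD-low libraries. Its log2 change was −0.36 ± 0.14 (SE), for 78.3% of the LD-low level.

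Lrba, the BEACH-domain gene, lies on chr3:86028602-86586615 on the plus strand and had the shortest transcript of the 10, with 9882 bases in 57 exons. It had 886, 926 and 786 normalized counts in LD-high libraries, against 1115, 843 and 1280.0 in LD-low libraries. LD-low 2 lay within the LD-high range, so the groups overlapped. Its log2 change was −0.30 ± 0.13 (SE), and it was −0.17 without LD-low replicate 3 and −0.47 without LD-low replicate 2.

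Wnk1, the chloride-sensitive kinase, lies on chr6:119873987-119988690 on the minus strand, with a transcript of 10575 bases in 28 exons. It had 1440.5, 1143 and 1062 normalized counts in LD-high libraries, against 1942, 2324 and 2236 in LD-low libraries. The groups did not overlap, and the highest LD-high value lay well under the lowest LD-low value. The means were 1215 ± 199 in LD-high and 2167 ± 200.4 in LD-low libraries (SD, n = 3 each). The log2 change was −0.84 ± 0.11 (SE). Wnk1 had the second shortest transcript of the 10 and the second most negative change, and the part of length in that change was not tested.

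The changes of the 10 genes were placed among all tested genes by the share of genes with a more negative change. That share was 1.82% for Utrn, 2.69% for Wnk1, 3.03% for Macf1, 3.97% for Dst and 4.67% for Herc1. It was 10.8% for Birc6, 12% for Huwe1, 13.9% for Lrba and 16.2% for Ubr4, so these genes were lower by amounts that many other genes also had. Herc2 stood apart at 74.3%.

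**Figure D2:**
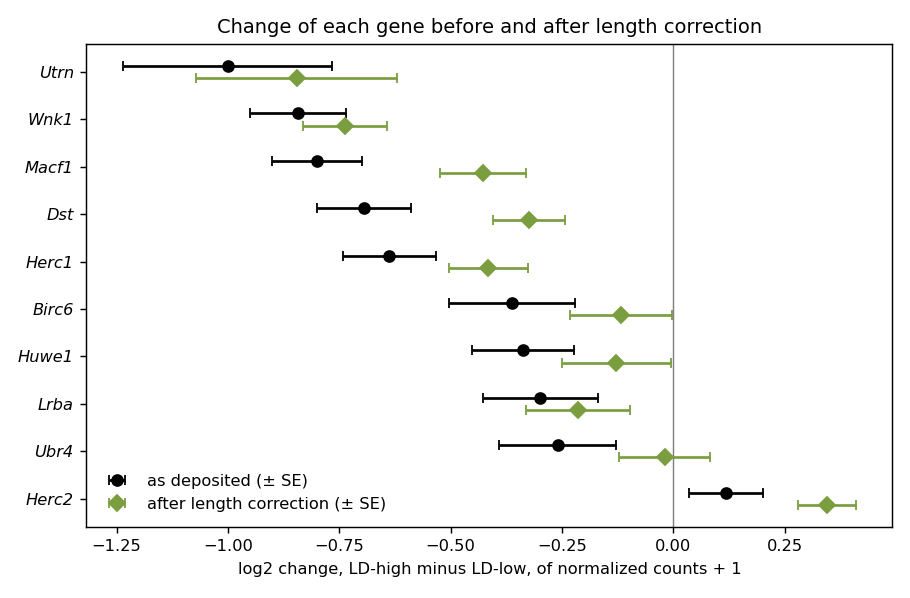
Log2 change of each gene, LD-high minus LD-low, on log2(normalized count + 1), with the SE of the limma fit, from the deposited values (black circles) and after a correction for transcript length within each library (green diamonds). Utrn and Wnk1 are the most negative in both, at −1.0 and −0.84 as deposited and −0.85 and −0.74 after the correction.

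Per kilobase of the longest annotated transcript, Herc2 had the highest level in both groups, with 231 ± 17.2 normalized counts per kb in LD-high and 213 ± 21.3 in LD-low libraries (SD, n = 3 each). Wnk1 came next with 115 ± 18.8 per kb in LD-high and 205 ± 18.9 in LD-low libraries. In LD-high microglia the levels of Herc2 and Wnk1 did not overlap, while in LD-low microglia their ranges did. Behind them in LD-high libraries came Lrba at 87.7 ± 7.29, Macf1 at 76.2 ± 10.2, Herc1 at 55.2 ± 7.02 and Ubr4 at 50.6 ± 4.79 per kb. Dst followed at 41.3 ± 1.44, Huwe1 at 40.1 ± 4.77, Birc6 at 32 ± 6.45 and Utrn at 4.95 ± 0.93 per kb. The neighbours in this LD-high order whose ranges overlapped were Lrba and Macf1, Herc1 and Ubr4, Dst and Huwe1, and Huwe1 and Birc6. In LD-low libraries Macf1 at 132 ± 13.3 stood before Lrba at 109 ± 22.3, and Herc1 at 85.6 ± 7.02 before Dst at 67.4 ± 11.2 per kb. The LD-low order ended with Ubr4 at 61.3 ± 13.2, Huwe1 at 50.5 ± 4.32, Birc6 at 40.9 ± 5.39 and Utrn at 9.94 ± 1.36 per kb. In that order the neighbours that did not overlap were Wnk1 and Macf1, Huwe1 and Birc6, and Birc6 and Utrn.

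Other annotated genes share exon bases with 7 of the 10, and the library kit does not mark strand, so reads there cannot be told apart. The shared part was 3.77% of the exon bases of Birc6 and 2.58% of those of Dst, each shared with an antisense lincRNA. It was 3.65% in Wnk1, shared with a pseudogene annotated under the same symbol. In Herc1 it was 1.15%, shared with the antisense gene Fbxl22, and in Ubr4, Lrba and Huwe1 it was 0.606%, 0.623% and 0.323%.

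Single libraries stood out across the 10 genes. LD-low 3 held the highest of the 6 values for 7 genes, and LD-high 3, the library with the fewest reads, held the lowest value for 8. The log2 deviation from each gene's mean over the 6 libraries, averaged over the 10 genes, was −0.13, −0.26 and −0.38 in LD-high libraries 1 to 3 and 0.17, 0.17 and 0.43 in LD-low libraries 1 to 3. Without LD-low replicate 3 the median log2 change of the 10 was −0.42, and over all 6 libraries left out in turn it lay between −0.62 and −0.42. Each of the 9 negative changes kept its sign in every case. The change lay between −0.89 and −0.68 for Macf1, −0.76 and −0.56 for Dst, and −1.15 and −0.91 for Utrn. For Herc1 it lay between −0.74 and −0.58, and for Huwe1 between −0.40 and −0.24. For Birc6 it lay between −0.52 and −0.25, and for Wnk1 between −0.97 and −0.75.

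**Figure D3:**
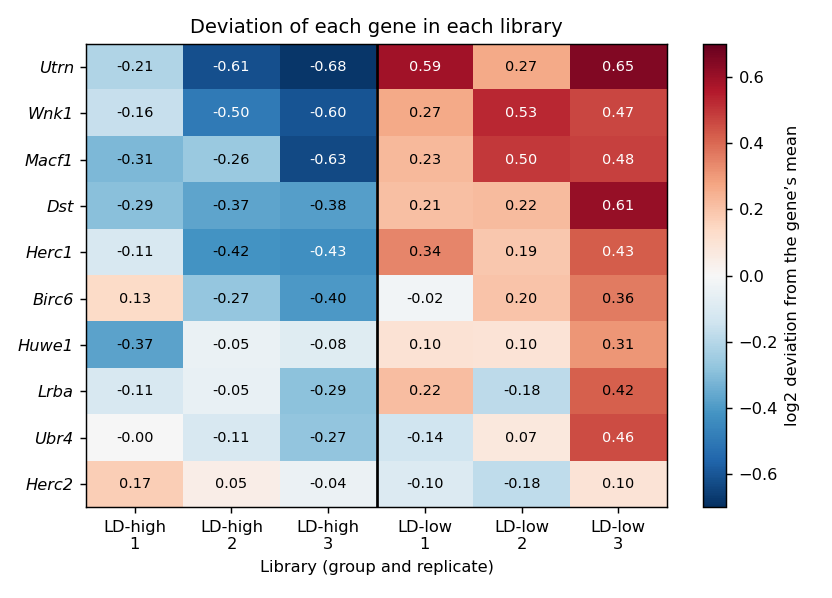
Log2 deviation of each gene (rows) from its own mean in each library (columns, LD-high left, LD-low right), red above and blue below the mean. All but Birc6 and Herc2 are below their mean in all 3 LD-high libraries, Ubr4 barely so in LD-high 1, and every gene is above its mean in LD-low 3.

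Long transcripts as a class stood lower in LD-high microglia. Outside the 10 genes, 174 tested genes had a longest transcript of at least 9882 bases, that of Lrba. Of these, 22 were lower and 2 higher in LD-high libraries by limma at 0.05, shares of 12.6% and 1.15%. Their median log2 change was −0.20, and 67.8% were negative, beside 51.3% of all tested genes. Values of 49, or 28.2%, lay lower in every LD-high than in any LD-low library. Of the 174, 34 or 19.5% had a more negative change than the median of the 10 giant genes. Without LD-low replicate 3 the count of lower genes was 4, without LD-low replicate 2 it was 8 and without LD-high replicate 3 it was 9. Their median lay between −0.26 and −0.13 over all 6 libraries left out in turn. After a correction for transcript length, 11 were lower and 6 higher, with a median of −0.06.

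Among these long genes the named falls were Usp34, a ubiquitin-specific protease, Sh3pxd2a, a podosome scaffold, and Bod1l, a protein of replication fork protection. Usp34 averaged 137 ± 28.2 normalized counts in LD-high and 297 ± 34.5 in LD-low libraries (SD, n = 3 each), with limma adjusted p = 0.00566 and a log2 change of −1.12 ± 0.18 (SE). Sh3pxd2a averaged 102 ± 28.3 and Bod1l 634 ± 73.2 in LD-high libraries, against 219.9 ± 36.2 and 1158 ± 179 in LD-low libraries, with limma adjusted p = 0.0156 and 0.00243. Ank2, an ankyrin that anchors membrane proteins to spectrin, and Sdk1, an adhesion protein of synapses, were the 2 that rose. Ank2 averaged 889.7 ± 72.7 in LD-high and 667 ± 53.6 in LD-low libraries, and Sdk1 505 ± 39.3 and 363 ± 38.0, with limma adjusted p = 0.0404 and 0.0463. Bod1l passed without each library in turn. Usp34 did not pass without LD-low replicate 3 (limma adjusted p = 0.05005), and Sh3pxd2a not without LD-low replicate 2 or 3 or LD-high replicate 3, with a highest limma adjusted p of 0.0989. Ank2 did not pass without LD-high replicate 1 or 3 or LD-low replicate 2 or 3, and Sdk1 not without any 1 of the 6, with highest limma adjusted p = 0.159 and 0.153.

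In classes of transcript length the median log2 change of the other tested genes lay between −0.01 and 0.02 in each class under 8 kb. It was −0.03 for 259 genes of 8 to 10 kb, −0.17 for 105 genes of 10 to 12 kb and −0.22 for 44 genes of 12 to 15 kb. It was −0.47 for the 19 genes of 15 kb and over, a thin class that holds 6 of the 10 giant genes beside them, and lay between −0.53 and −0.35 there with each library left out. Macf1, Dst and Herc1 lay below the lower quartile of that class, −0.61, and Herc2 above its upper quartile, −0.09. Birc6, at −0.36, and Ubr4, at −0.26, lay between these quartiles and above the class median. Wnk1 and Utrn lay far below the medians of their own classes, 10 to 12 kb and 12 to 15 kb. Huwe1, at −0.34, lay within the quartiles of the 12 to 15 kb class, −0.40 and 0.02. Lrba, at −0.30, lay below the lower quartile of the 8 to 10 kb class, −0.24. By library, the median deviation of the 174 long genes was 0.00, −0.13 and −0.12 in LD-high libraries and 0.02, 0.05 and 0.23 in LD-low libraries, so LD-low 3 stood highest here too.

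**Figure D4:**
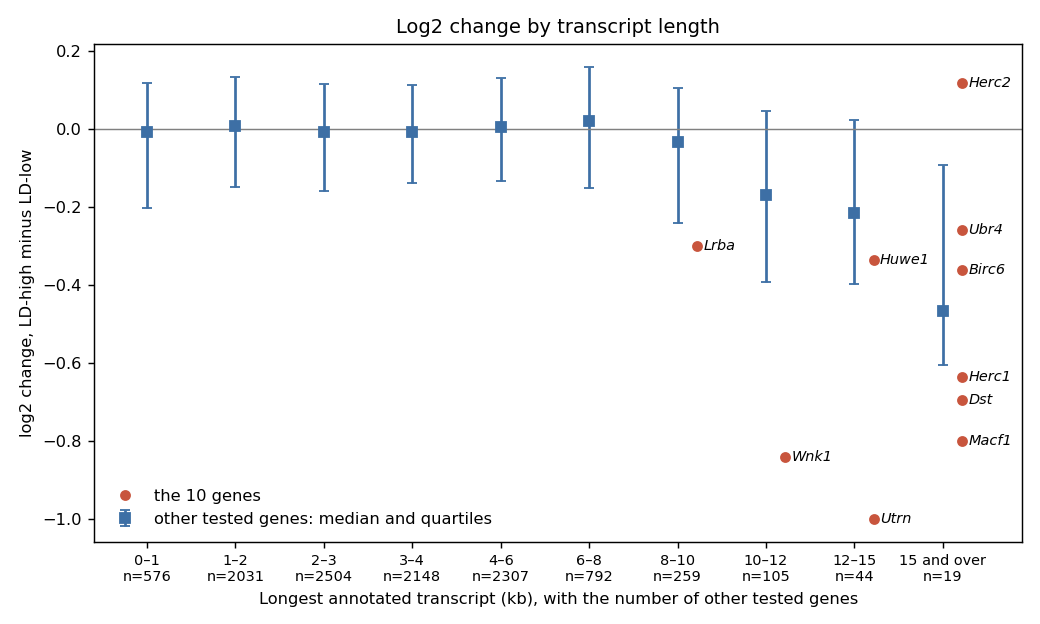
Log2 change, LD-high minus LD-low, against the longest annotated transcript in kb, as the median and quartiles of other tested genes (blue) and as single genes for the 10 (red). The blue medians stay near 0 under 8 kb and reach −0.47 at 15 kb and over. In that class Macf1, Dst and Herc1 lie lower still, Birc6 and Ubr4 lie between the median and 0, and Herc2 lies above 0.

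A correction that took out a smooth trend of value with transcript length within each library moved the median log2 change of the 10 to −0.27, with 9 still negative. How far each gene moved was set by its transcript length alone, and the shortest, Lrba, Wnk1 and Utrn, moved least. Utrn moved to −0.85 ± 0.23 and Wnk1 to −0.74 ± 0.09 (SE). Macf1 moved to −0.43 ± 0.10, Herc1 to −0.42 ± 0.09 and Dst to −0.32 ± 0.08. Lrba was then at −0.21 ± 0.12, Huwe1 at −0.13 ± 0.12, Birc6 at −0.12 ± 0.11 and Ubr4 at −0.02 ± 0.10, while Herc2 was at 0.34 ± 0.07. After the correction 5 of the 10 lay lower in every LD-high library, a pattern of 11.6% of the 10795 genes with a length. The trend is set by genes of all lengths and few are as long as Macf1, and fitted without the 10 genes it gave a median of −0.29.

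Relatives and partners of the 10 were taken from 11 lists, in all 246 genes, of which 212 were listed and 194 tested. Of these, 8 were higher and 11 lower in LD-high libraries by limma, and 175 did not pass. The shares were 4.12% higher and 5.67% lower, beside 1.53% and 1.82% of all tested genes, with a median log2 change of 0.01. After the length correction 12 of 185 were higher and 5 lower, which turns the balance of the 19 calls. Without LD-low replicate 3 there were 2 calls, without LD-low replicate 2 or LD-high replicate 3 there were 7, and without LD-high replicate 2 there were 12.

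Among plakin and spectrin-repeat scaffolds, the closest kin of Macf1, Dst and Utrn, none of 9 tested genes passed and the median was −0.14. Syne2, a nesprin of the nuclear envelope, came nearest, with 11.3 ± 12 normalized counts in LD-high and 37.2 ± 7.30 in LD-low libraries (SD, n = 3 each; limma adjusted p = 0.124), and passed when LD-high 1 was left out. Of 22 large actin, microtubule and centrosome scaffolds, 4 were higher and 1 lower, with a median of −0.04. The 4 that rose were Myh9, the non-muscle myosin heavy chain, Tln1, the integrin-binding talin, Dock2, a Rac activator of leukocytes, and Ank2. Myh9 averaged 6510.2 ± 606 in LD-high and 4948 ± 333 in LD-low libraries, Tln1 18422 ± 2516 and 14094 ± 372, and Dock2 12980.2 ± 711 and 10485 ± 400.2, with limma adjusted p = 0.0181, 0.0287 and 0.0257. Golga4, a golgin of the trans-Golgi, fell, with 630 ± 40.5 in LD-high and 917 ± 58.6 in LD-low libraries (limma adjusted p = 0.0124). Golga4 did not pass without LD-low replicate 3 (limma adjusted p = 0.0718), and Myh9 not without LD-low replicate 2 or 3 (at most 0.0927). Tln1 did not pass without LD-high replicate 1 or 3 or LD-low replicate 2 or 3, and Dock2 not without any 1 library other than LD-low replicate 1, with a highest limma adjusted p of 0.118 for each.

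Among microtubule tip and Wnt partners of spectraplakins 1 of 17 passed. Gsk3b, the kinase that phosphorylates Macf1, averaged 861 ± 38.0 normalized counts in LD-high and 1105 ± 66.8 in LD-low libraries (SD, n = 3 each), with limma adjusted p = 0.0407 and a log2 change of −0.36 ± 0.09 (SE). It did not pass without any 1 of the 6 libraries, nor after the length correction (limma adjusted p = 0.0793). None of the 14 tested genes of the utrophin-dystroglycan complex passed.

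Of the 21 other HECT ligases none passed, 5 were negative and the median was 0.06. Itch, the ligase known for restraining T cells, averaged 4671 ± 322 normalized counts in LD-high and 3984 ± 106 in LD-low libraries (SD, n = 3 each; limma adjusted p = 0.0882). None of 12 other N-degron genes passed, where Ate1, the arginyl transferase, had limma adjusted p = 0.188. Among 25 partners and substrates of the ligases 1 passed: Cltc, the clathrin heavy chain, was higher at 29026 ± 3420 in LD-high against 22782 ± 1194 in LD-low libraries (limma adjusted p = 0.0369). Among 16 inhibitor of apoptosis genes and their targets 1 passed: Map1lc3b, the autophagosome protein that Birc6 ubiquitinates, was higher at 5747 ± 183 in LD-high against 4565 ± 339 in LD-low libraries (limma adjusted p = 0.0248). Cltc and Map1lc3b did not pass without any 1 library other than LD-low replicate 1, with highest limma adjusted p = 0.172 and 0.106.

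Of the 8 other BEACH-domain genes none passed, and the median was −0.11. Wdfy4, which serves cross-presentation in dendritic cells, averaged 2866 ± 359.9 normalized counts in LD-high and 2277 ± 208 in LD-low libraries (SD, n = 3 each; limma adjusted p = 0.0683), and passed after the length correction (limma adjusted p = 0.0212) and when LD-low 1 was left out. In the WNK cascade 1 of 18 was higher and 1 lower. Cab39, the partner that activates the kinases below WNK, averaged 6308 ± 126 in LD-high and 5078 ± 281 in LD-low libraries (limma adjusted p = 0.0245). Wnk4, a paralogue of Wnk1, averaged 74.6 ± 4.67 in LD-high and 143 ± 15.6 in LD-low libraries, a log2 change of −0.93 ± 0.20 (SE; limma adjusted p = 0.0275). Cab39 did not pass without LD-high or LD-low replicate 2 or 3, and Wnk4 not without any 1 of the 6 libraries, with highest limma adjusted p = 0.103 and 0.101.

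The list of 34 tested genes for other giant proteins was the one with most falls, with 8 lower, 1 higher and a median of −0.25. Bod1l and Usp34, given above, were among the 8, and so were Chd7, a chromatin remodeller, and Kmt2a, a histone methyltransferase. Chd7 averaged 2625 ± 159 normalized counts in LD-high and 3726 ± 277 in LD-low libraries, and Kmt2a 462 ± 68.1 and 758 ± 39.6 (SD, n = 3 each), with limma adjusted p = 0.00399 and 0.00667. Itpr3, a calcium release channel, was the 1 that rose, with 706 ± 36.8 in LD-high and 484 ± 42 in LD-low libraries (limma adjusted p = 0.0171). This list held 2 falls without LD-low replicate 3 and 5 without LD-low replicate 2 or LD-high replicate 3, and after the length correction it held 3 falls and 1 rise of 31 genes with a length, with a median of −0.03. Kmt2a had no matched length, so it was not among the 31 and its fall was not tested after the correction. Bod1l and Chd7 passed without each library in turn, Kmt2a not without LD-low replicate 3 (limma adjusted p = 0.0519), and Itpr3 not without LD-high replicate 3 or LD-low replicate 2 or 3 (at most 0.0849).

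**Figure D5:**
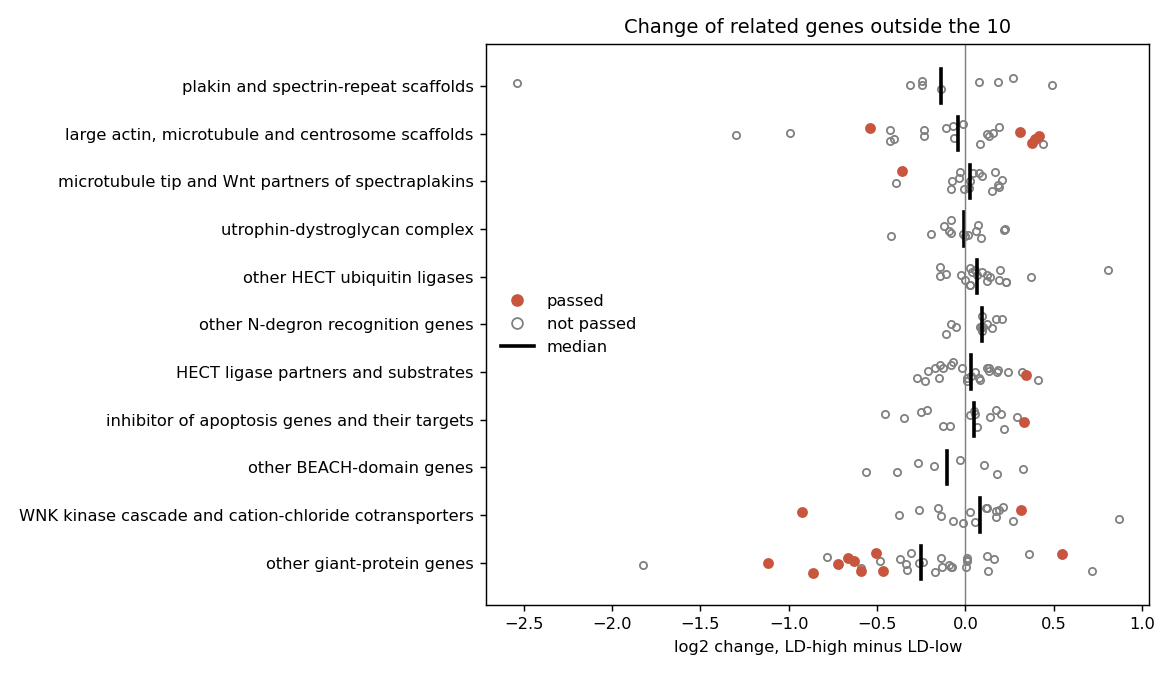
Log2 change, LD-high minus LD-low, of each tested gene in the 11 lists of relatives and partners (rows), filled where the gene passed limma at an adjusted p under 0.05, with the list median as a bar. The medians lie between −0.25 and 0.09, and 8 of the 11 falls stand in the list of other giant proteins.

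Profiles over the 6 libraries were compared with the mean profile of the 10 by the root mean square difference of centred log2 values. Among other genes averaging 50 normalized counts or more, the nearest were Ramp1, a partner of the calcitonin-like receptor, at 0.035, Pot1b, a telomere protein, at 0.059, Bach2, a transcriptional repressor, at 0.064, and Apc and Myo18b, both at 0.068. The 10 genes themselves lay between 0.097 (Herc1) and 0.32 (Herc2) from their mean, so Ramp1 followed the mean profile more closely than any of them. Ramp1 was picked as the closest of all such genes and the 10 were not picked by closeness, so nothing is read from that. The longest transcripts of the nearest genes were 2549 bases in Ramp1, 3499 in Pot1b, 8882 in Bach2, 12346 in Apc and 8280 in Myo18b. Thus Ramp1 and Pot1b were much shorter than the 10 genes. Bach2 and Myo18b were also shorter than the shortest of the 10, Lrba at 9882 bases, and only Apc was longer.

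Reads in genes per library ran from 15895576 to 36894483 in LD-high and from 23808102 to 38489448 in LD-low libraries. The 10 genes had 32 to 5139 reads per library, so counting error was largest for Utrn. The 10 microglial markers were all listed, none passed, and their sum ran from 1546510 to 1757550 normalized counts in LD-high and from 1577710 to 1842810 in LD-low libraries. Neutrophil markers were at 0 in every LD-high library and summed to 1154 to 4297 normalized counts in LD-low libraries, highest in LD-low 3. All 5 tested were lower in LD-high, but with 0 in those libraries they could pass the filter only by LD-low values. Their direction was thus fixed by the filter. S100a8, S100a9, Ngp, Camp, Ltf and Mmp8 were listed, and Ly6g and Retnlg were not. Choroid plexus markers summed to 1725 to 5605 in LD-high and 366 to 1804 in LD-low libraries, with 3 of 6 tested higher. Oligodendrocyte markers summed to 5458 to 6013 in LD-high and 4641 to 4896 in LD-low libraries, and astrocyte markers to 7999 to 8878 and 6500.1 to 7854, with none of 5 and none of 3 tested passing. The oligodendrocyte and astrocyte sums were thus higher in every LD-high than in any LD-low library, while the choroid plexus sums overlapped. Endothelial, border macrophage, neuronal and lymphocyte markers overlapped between the groups in their sums. None passed of 5 endothelial and mural, 7 border macrophage and 1 neuronal marker tested, and no lymphocyte marker was tested. LD-low 3 was thus highest both for neutrophil markers and for 7 of the 10 genes, and LD-high 3 had both the fewest reads and 8 of the lowest values. The part of neutrophil, choroid plexus, oligodendrocyte and astrocyte RNA and of depth in the lower values of the 10 genes was not tested.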

How the data were processed

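RNA was sequenced from 3 LD-high and 3 LD-low libraries. The authors checked reads with FastQC 0.11.4, mapped them to mm9 with STAR 2.5.1b and normalized with DESeq2, per the submitters' processing notes. The deposited values are a normalized signal per gene, that is, counts scaled by a size factor of each library, and 100% were whole reads within 0.01 of the step of their library. Genes at 0 could have held up to 3 reads, and such limits cover counting error only. Genes with at least 10 normalized counts in at least 3 libraries were tested, 11624 in all, with limma 3.58.1 (R 4.3.3; moderated variances with a trend, 2-sided, Benjamini-Hochberg) on log2(normalized count + 1), which understates changes of low genes. Count tests (edgeR 4.0.16, DESeq2 1.42.0), length and GC corrections (lowess, span 0.3) and other scalings, filters and pseudocounts were alternatives. Coordinates and lengths come from GENCODE vM1 on mm9, where 12949 symbols matched and 92.9% of tested genes had a length. On simulated data the test called 67% of log2 changes of 0.5 and 99% of those of 1, and 5.68% of its calls were false. Genes were drawn independently there, with no shift of a whole library, so the check does not cover the dependence on single libraries. The 10 genes and all lists were chosen with earlier results of these data known. Named are all 10, per list the passing genes (at most 5) or the nearest, the 5 closest profiles, and the 3 largest rises and falls among long genes with a mean of at least 50. Of the long genes only 2 rose. For 1 list the nearest gene is not reported here. Of 14148 genes listed, 22 carry a date in place of a symbol.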

Additional observations from a re-analysis of the deposited data

How the results depend on the processing

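Over 23 alternatives, 0 of 230 log2 changes of single giant genes reversed, 206 moved by less than the spread between replicates and 24 moved by more, all under corrections for transcript length. The median log2 change of the 10, −0.50, was −0.27 with the length correction, −0.29 with length and GC corrections, with or without the replicate block, and −0.29 with the length trend fitted without the 10, an alternative chosen after seeing the data. It was −0.54 with equal totals and lay between −0.62 and −0.42 with each library left out. The count of 6 genes without overlap was 5 under the length corrections, 6 to 8 with each library left out, and 6 under the other alternatives. The 390 calls over all genes became 15 without a mean-variance trend, 252 with quantile normalization, 729 with DESeq2 and 43 to 407 with each library left out. With equal totals 118 genes were higher and 233 lower, beside 178 and 212. The 19 calls among relatives and partners became 0 without the trend and 30 with DESeq2, and 2 to 19 with each library left out. After the length correction the relatives had 12 higher and 5 lower calls, beside 8 and 11, and the long genes 6 and 11, beside 2 and 22. The 24 calls among other long genes became 1 without the trend, and 4 to 24 with each library left out. With the replicate block there were 1090 calls over all genes, 38 among relatives and 42 among long genes, and with length and GC corrections beside the block 1132 and 36. Same-numbered libraries had correlations of deviations of 0.16, 0.13 and 0.064, and differently numbered ones between −0.13 and −0.017, so each library went best with its own number, a hint from the data and not the design. The cause of these differences was not tested. Depth limits Utrn most, with 32 reads in its lowest library.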

Other observations

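Of the 19 other tested genes with a longest transcript of 15 kb or more, 6 were lower in LD-high microglia by limma at 0.05. None of the 6 passed without LD-low replicate 3 or after the length correction. With LD-high 1, 2 or 3 left out, the class had 6, 4 and 1 lower genes, and with LD-low 1, 2 or 3 left out 5, 1 and 0. They are named here after their values were seen, and without LD-low replicate 3 the limma adjusted p ran from 0.0967 for Smg1 to 0.205 for Vps13d. Smg1, a kinase of nonsense-mediated decay, averaged 691 ± 148 normalized counts in LD-high and 1050 ± 33.1 in LD-low libraries (SD, n = 3 each; limma adjusted p = 0.0214). Neat1, the long noncoding RNA of paraspeckles, averaged 525 ± 94.7 in LD-high and 831 ± 179 in LD-low libraries (limma adjusted p = 0.0308). Mycbp2, a ubiquitin ligase, had a log2 change of −0.47 ± 0.10 (SE; limma adjusted p = 0.0234). Vps13d, a lipid transfer protein, had one of −0.59 ± 0.15 (SE; limma adjusted p = 0.0463). Zbtb20, a transcription factor, had one of −0.48 ± 0.12 (SE; limma adjusted p = 0.0463). The other was 4932438A13Rik, at a log2 change of −0.62 ± 0.13 (SE). Within the same class Lpp, a focal adhesion protein, averaged 476 ± 83.4 in LD-high and 460 ± 70.7 in LD-low libraries (limma adjusted p = 0.899). Strbp, an RNA-binding protein, averaged 341 ± 24.8 in LD-high and 344 ± 35.4 in LD-low libraries (limma adjusted p = 0.972).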
